A study of Mus musculus with 4 samples.

Results

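The nuclear long noncoding RNAs (lncRNAs) described here are 8 genes, Malat1, Neat1, Miat, Tug1, Kcnq1ot1, Airn, Norad and Snhg11, among 55036 genes listed in the counts of mouse articular cartilage. The members were chosen by their measured values, in that the rise of these RNAs in the hip pair of libraries led to the list, so their hip ratios are given as a description and support nothing. Their knee ratios come from other libraries and were not used for the choice, but were known when the list was made. All 8 genes were listed in every library, and all 8 reached the minimum for a ratio, 10 counts over both libraries of a joint.

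Poly-A RNA libraries were made from hip and knee articular cartilage of male mice carrying floxed alleles of Cbfb, the partner subunit of the Runx transcription factors, to ask what its loss does to cartilage gene expression. There were 4 libraries, 1 per condition. The hip control was labelled as untreated Cbfb f/f without Cre, and its counterpart as tamoxifen (TMX)-injected Cbfb f/f;Col2a1-CreERT, so this pair also differed in TMX and Cre. The knee control was an oil-injected Cbfb f/f;Aggrecan-CreERT mouse sample, and its counterpart was the same genotype injected with TMX, so both knee libraries carried Cre. The Col2a1 and Aggrecan (Acan) drivers act in cells of the chondrocyte lineage and leave Cbfb intact in other cells of the joint. The study's legends give an age of 6 weeks for the hip mice and 12 weeks for the knee mice, and its running text gives another age for the hip. The TMX-injected libraries are called labelled Cbfb-deficient below. The study's discussion describes the hip samples as cartilage alone and those of the knee as cartilage together with bone. The joint, this tissue content, the Cre driver, the age, the control's treatment and the set of genes counted all differed between hip and knee. Their effects cannot be told apart.

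Malat1 is an abundant RNA of nuclear speckles, the bodies that store splicing factors, and Neat1 is the scaffold of paraspeckles, bodies that form around its long isoform. Kcnq1ot1 and Airn are antisense RNAs of imprinted clusters, transcribed from the paternal allele, and are known for silencing neighbouring genes in cis. Miat binds splicing factors in the nucleus and is best known from neurons, Tug1 is known for retained introns, and Snhg11 hosts small nucleolar RNAs. Norad is known as a largely cytoplasmic RNA that binds Pumilio proteins, so it does not match the group's name, and counts per gene do not show where in a cell an RNA was.

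The ends of Malat1 and Neat1 are shown because these libraries were selected for poly-A. In both genes the long RNA is cut by RNase P instead of being polyadenylated, which leaves a genome-encoded A-rich end, followed in Malat1 by a small tRNA-like RNA. The Malat1 stretch is transcript Malat1-201, bases 7446 to 7667 of 7886, at chr19:5845936-5846157 (GRCm39, minus strand), and the capitals mark a run of 12 A that starts at base 7576. The Neat1 stretch is the last bases of Neat1-201, 22278 to 22397, at chr19:5874736-5874855 (GRCm39, minus strand), with runs of at least 4 A in capitals.
Malat1: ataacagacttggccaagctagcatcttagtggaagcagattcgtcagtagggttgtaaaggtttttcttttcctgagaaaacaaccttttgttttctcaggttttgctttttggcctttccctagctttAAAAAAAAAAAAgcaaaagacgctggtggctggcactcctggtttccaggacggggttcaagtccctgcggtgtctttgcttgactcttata
Neat1: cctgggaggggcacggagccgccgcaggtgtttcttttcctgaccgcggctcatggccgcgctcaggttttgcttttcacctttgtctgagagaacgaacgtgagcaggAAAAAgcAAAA
Runs of at least 12 A were found once in the longest transcript of Malat1 and 8 times in that of Kcnq1ot1 (93092 bases), and in none of the other 6 members. Among all genes tested in the hip, those with 10 or more counts over both libraries, 14.0% held such a run in their longest transcript.

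Counts on genes ranged from 34264456 to 38473120 per library, and 3 counts, taken as the floor, were 0.0780 to 0.0876 CPM, a gene's counts scaled to the library's total. Hip and knee counts list different sets of genes, 50686 and 54838, so a level set across joints also carries that difference. With 1 library per condition there is no replicate error and no p-value, and the 95% Clopper-Pearson intervals below cover counting error only. A gene is called above or below its interval where the whole interval of its log2 ratio lies above or below 0. At this depth that is common, with 37.3% of tested genes above and 33.7% below in the hip, and 31.9% above and 29.7% below in the knee. Among genes with 1000 or more counts over a pair 48.4% were above and 41.4% below in the hip, and 40.9% lay on either side in the knee. These shares are the background for each count of genes above or below their interval given further on for a list of related genes. The lists were chosen with earlier results of these data known, so their counts are a description only. Cbfb had 2548 counts in the hip control and 2946 in its counterpart, a log2 ratio of 0.41 (0.33 to 0.48), and 3796 and 4572 in the knee, a log2 ratio of -0.07. Its direction turned with the length and GC trends described further on subtracted, to -0.20 in the hip and 0.09 in the knee, so the counts give no clear change of the targeted gene. Counts per gene do not show whether a floxed exon was deleted, and every direction below rests on the labels alone. Markers of cartilage were sparse in the hip, where 16 chondrocyte genes held 0.0296% and 0.0309% of counts, while 16 skeletal muscle genes held 17.9% and 19.4%. In the knee the same lists held 0.632% and 0.340%, and 1.34% and 2.83%. Fewer cells of a type and less RNA per cell cannot be told apart in such bulk samples.

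Malat1 (ENSMUSG00000092341, chr19:5845717-5853602 of GRCm39, 1 exon) had 71.5 CPM in the hip control, 595 CPM in the hip library labelled Cbfb-deficient, 1273 CPM in the knee control and 1194 CPM in the knee library labelled Cbfb-deficient. The hip control was the low one of the 4, and the other 3 lay within a range of 595 to 1273 CPM. Its counts in the hip were 2751 and 20564, a log2 ratio of 3.10 (95% counting interval 3.04 to 3.16), or 8.57-fold. In the knee they were 43606 and 45641, a log2 ratio of -0.27 (-0.29 to -0.25). Over the other scalings and the trend subtraction described further on, this knee value lay between -0.47 and -0.09, wider than its counting interval. Malat1 was the lncRNA gene with the most counts in both knee libraries, ranked 3 in the hip library labelled Cbfb-deficient, and ranked 5 of 4206 lncRNA genes detected in the hip control.

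Neat1 (ENSMUSG00000092274, chr19:5874736-5897132 of GRCm39) had 71.3 CPM in the hip control and 1441 CPM in its counterpart, and 261 and 408 CPM in the knee libraries in the same order. The hip control was again the lowest library, and here the hip library labelled Cbfb-deficient was the highest, above both knee libraries. From 2742 and 49846 counts, its hip log2 ratio was 4.38 (4.33 to 4.44), or 20.8-fold. Of 4970 genes that reached 1000 counts in either hip library, 2 had a larger ratio than Neat1 and 30 a larger one than Malat1. In the knee, 8937 and 15612 counts gave a log2 ratio of 0.47 (0.43 to 0.50), in the same direction and under 1 in size. Counts per gene do not separate the short polyadenylated isoform of Neat1 from the long one.

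The balance of both RNAs within a library needs no scaling between libraries. Neat1 and Malat1 had nearly equal counts in the hip control, with a ratio of Neat1 to Malat1 of 0.997 (0.945 to 1.05). The ratio was 2.42 (2.38 to 2.46) in the hip library labelled Cbfb-deficient, 0.205 (0.2003 to 0.2097) in the knee control and 0.342 (0.336 to 0.348) in the knee library labelled Cbfb-deficient. It was thus higher in the library labelled Cbfb-deficient in both joints, beyond counting error in each pair, and both knee values lay below both hip values. Both genes lie on chromosome 19 with 21133 bases between them. Frmd8, which lies 2597 bases from Neat1, had a hip log2 ratio of 0.53 and a knee log2 ratio of -0.03. Over 8 tested genes of this neighbourhood the hip median was -0.16 and the knee median 0.09, against 0.01 and 0.02 over all genes tested. With the length and GC trends subtracted these list medians turned to 0.19 and -0.02.

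**Figure D1:**
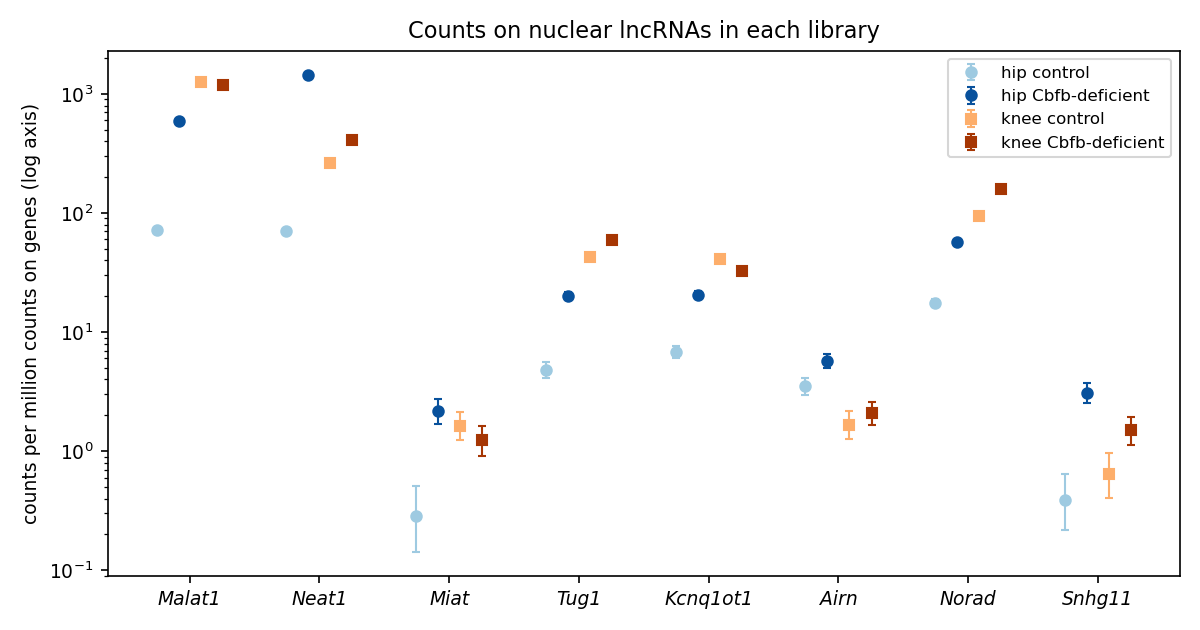
CPM of each nuclear lncRNA (log axis) in the 4 libraries, circles for hip and squares for knee, with 95% Clopper-Pearson intervals that cover counting error only. The hip control is the lowest library for every gene but Airn, as for Malat1 with 71.5 CPM against 595 to 1273 CPM in the others.

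Miat (ENSMUSG00000097767, chr5:112361094-112377261 of GRCm39) was at the low end of the group, with 11 and 75 counts in the hip pair and 56 and 47 counts in the knee pair. These counts are 0.286, 2.17, 1.63 and 1.23 CPM, so the hip control stood below the other 3 libraries, whose levels lay close together. The hip log2 ratio was 2.91, with a wide interval of 2.05 to 4.03, and the knee log2 ratio was -0.59 (-1.18 to -0.01). Of 11 neuron and nerve markers tested in the hip, 1 was above and 7 were below their counting interval, and the share of counts of the list was 0.00626% in the control and 0.00380% in its counterpart. In the knee 5 of 8 tested were above and 3 below, with a median log2 ratio of 0.78 against -1.14 in the hip, and the shares were 0.00601% and 0.00685%. Their part in the values of Miat was not tested.

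Snhg11 (ENSMUSG00000044349, chr2:158217558-158228071 of GRCm39) was nearly as sparse, with 15 and 107 counts in the hip pair and 22 and 57 counts in the knee pair. Both control libraries were low (0.390 and 0.642 CPM) and both libraries labelled Cbfb-deficient were higher (3.09 and 1.49 CPM). The log2 ratio was 2.99 (2.25 to 3.92) in the hip and 1.01 (0.30 to 1.81) in the knee. Snhg11 was the 1 member past a log2 ratio of 1 in the knee, and it fell under 1 there with upper quartile scaling (0.90), with 2 added to each count (0.96) or with the length and GC trend of all genes removed (0.87).

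Tug1 (ENSMUSG00000056579, chr11:3589785-3599673 of GRCm39), which the annotation used here types as protein coding although it is known as a lncRNA, had 185 and 699 counts in the hip pair. In the knee it had 1452 and 2259 counts. Its level was lowest in the hip control (4.81 CPM), then followed the hip library labelled Cbfb-deficient (20.2 CPM), the knee control (42.4 CPM) and the knee library labelled Cbfb-deficient (59.1 CPM). The log2 ratio was 2.11 (1.88 to 2.36) in the hip and 0.30 (0.20 to 0.39) in the knee. With the length and GC trends described further on subtracted, the hip value was 0.81 and was no longer called. Over all alternatives run, the knee value lay between 0.18 and 0.48.

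Norad (ENSMUSG00000102869, chr2:156229977-156234978 of GRCm39) had the same order of libraries as Tug1, with 17.4, 56.7, 94.4 and 159 CPM. It drew 670 and 1961 counts from the hip libraries and 3233 and 6081 from those of the knee. The log2 ratio was 1.75 (1.62 to 1.88) in the hip and 0.57 (0.51 to 0.63) in the knee, the second largest knee ratio of the group after Snhg11. Norad is known for repeated Pumilio sites, and its closest pair is given with the motif TGTANATA in capitals, from bases 2444 to 2500 of Norad-202 at chr2:156232422-156232478 (GRCm39, minus strand).
Norad: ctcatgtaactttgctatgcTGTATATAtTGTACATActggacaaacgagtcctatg
The motif occurred 11 times in the sense strand of Norad-202 (4945 bases) and not on the other strand. Of 2585 genes of the hip whose longest transcript has 4500 to 5500 bases, 41.1% held at least 1 match and 1, Norad itself, held as many as 11. In the other members the motif was found 18 times in Kcnq1ot1, 4 times in Neat1 and once in Miat. Of 9 Pumilio proteins and Norad partners, 7 were above and 2 below their counting interval in the hip (median 0.72), and 3 and 3 in the knee (median -0.02). Pum2 had log2 ratios of 1.28 and -0.11, and the topoisomerase gene Top1 1.41 and -0.65. With the length and GC trends subtracted, the hip values were 0.22 for the list median, 0.22 for Pum2 and 0.68 for Top1, and the knee median became 0.17 with library size.

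Kcnq1ot1 (ENSMUSG00000101609, chr7:142731402-142850327 of GRCm39, minus strand) drew 262 and 710 counts from the hip libraries and 1406 and 1255 from those of the knee. Its levels were 6.81, 20.5, 41.0 and 32.8 CPM in the same order, so the hip control was lowest and the knee control highest. Its log2 ratio was 1.63 (1.43 to 1.85) in the hip and -0.50 (-0.61 to -0.39) in the knee, in opposite directions. With the length and GC trends described further on subtracted, the hip value was 0.26 (0.05 to 0.47) and was no longer called, and the knee value was -0.62. The gene lies whole within Kcnq1, on the other strand. Kcnq1 itself, with 62 and 116 counts in the hip pair and 18 and 26 counts in the knee pair, had log2 ratios of 1.10 and 0.18. The kit and counting are not stated to keep strand, and without it reads of Kcnq1ot1 and Kcnq1 cannot be told apart where exons overlap. Of 10 tested protein-coding genes of the cluster, 3 were above and 6 below their counting interval in the hip, with a median of -0.24. In the knee 2 of 13 were above and 6 below, with a median of -0.14 that became 0.04 with scaling by library size alone. Cd81, a membrane protein gene of the cluster, had 3618 and 2104 counts in the hip, a log2 ratio of -0.58. With the length and GC trends subtracted, the hip median of the cluster was -0.02 and the hip value of Cd81 -0.05.

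Airn (ENSMUSG00000078247, chr17:12960198-13079299 of GRCm39, plus strand) was the member whose hip ratio was smallest, with 135 and 198 counts and a log2 ratio of 0.75 (0.43 to 1.08). In the knee it had 57 and 80 counts, a log2 ratio of 0.15 with an interval (-0.36 to 0.67) that holds 0. Here both hip libraries (3.51 and 5.73 CPM) lay above both knee libraries (1.66 and 2.09 CPM), the reverse of the order seen for Tug1 and Norad. Airn overlaps Igf2r, its antisense partner, over 28417 bases. Igf2r, the receptor for insulin-like growth factor 2, drew 3133 and 4278 counts from the hip libraries and 1642 and 2314 from those of the knee. Its log2 ratios were 0.65 and 0.16. With the length and GC trends subtracted they were 0.32 and -0.14, beside 0.85 and 0.38 for Airn. The length used for Airn was that of its longest annotated transcript, 1733 bases. Reads on the overlap of this pair cannot be told apart without strand. Of 4 tested protein-coding genes of the Airn cluster in the hip, 3 were above and 1 below their interval, the one below being the transporter gene Slc22a2 (-2.23). In the knee 2 of 3 were above and 0 below, and the transporter gene Slc22a3 was called higher, with 105 and 301 counts and a log2 ratio of 1.18, against 0.56 in the hip.

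Neighbours of Tug1, Norad, Miat and Snhg11 were mostly not above their interval in the hip. Of 17 tested, 3 were above and 9 below their interval in the hip, with a median of -0.61, and of 16 in the knee 6 were above and 4 below, with a median of 0.08 that became -0.03 with upper quartile scaling and -0.11 with the length and GC trends subtracted.

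In the hip, 7 of the 8 members were called higher, where a call needs a log2 ratio of 1 or more, up or down, whose interval does not hold 0. The same rule called 20.2% of 19856 tested genes higher and 16.3% lower in the hip, 4018 and 3234 genes. These counts became 2773 and 4765 with upper quartile scaling, and 2699 and 3093 with the length and GC trends subtracted, so the balance of higher to lower depends on the scaling. The members were selected on this contrast, and nothing is read from that count, which was 5 with these trends subtracted. In the knee, 4 members lay above their counting interval (Neat1, Tug1, Norad and Snhg11), 3 below (Malat1, Miat and Kcnq1ot1), and the interval of Airn held 0. The 3 below became 2, as Miat's interval then held 0, with library size, with DESeq2 size factors and with totals without muscle, erythroid and mitochondrial genes. Over all tested knee genes 31.9% were above and 29.7% below. Only Snhg11 was called higher in the knee and none was called lower, where the rule called 9.00% of 21131 genes higher and 6.81% lower, 1902 and 1440 genes. These became 2603 and 1049 with library size, and 1543 and 1775 with upper quartile. A share of 1 in 8 is near the reported background. The median log2 ratio of the 8 was 2.51 in the hip and 0.22 in the knee, against 0.01 and 0.02 over all genes tested. The choice of members favours the high hip median, and the knee median was 0.40 with library size.

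The hip log2 ratio exceeded the knee log2 ratio for each of the 8. The difference was 3.92 for Neat1, 3.50 for Miat, 3.37 for Malat1, 2.14 for Kcnq1ot1, 1.98 for Snhg11, 1.81 for Tug1, 1.17 for Norad and 0.60 for Airn. These differences were not tested. The hip value in each was used to choose the members, which favours a larger value in the hip. With the length and GC trends described further on subtracted, the difference was 3.53 for Neat1, 3.62 for Miat and 2.52 for Malat1. It was then 0.87 for Kcnq1ot1, 1.52 for Snhg11, 0.63 for Tug1, 0.78 for Norad and 0.48 for Airn. Malat1, Miat and Kcnq1ot1 were above their interval in the hip and below it in the knee. The same held for 1801 of 17594 genes that were tested in both joints (10.2%). Of 3710 such genes that were called higher in the hip, 21.5% lay below their knee interval.

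**Figure D2:**
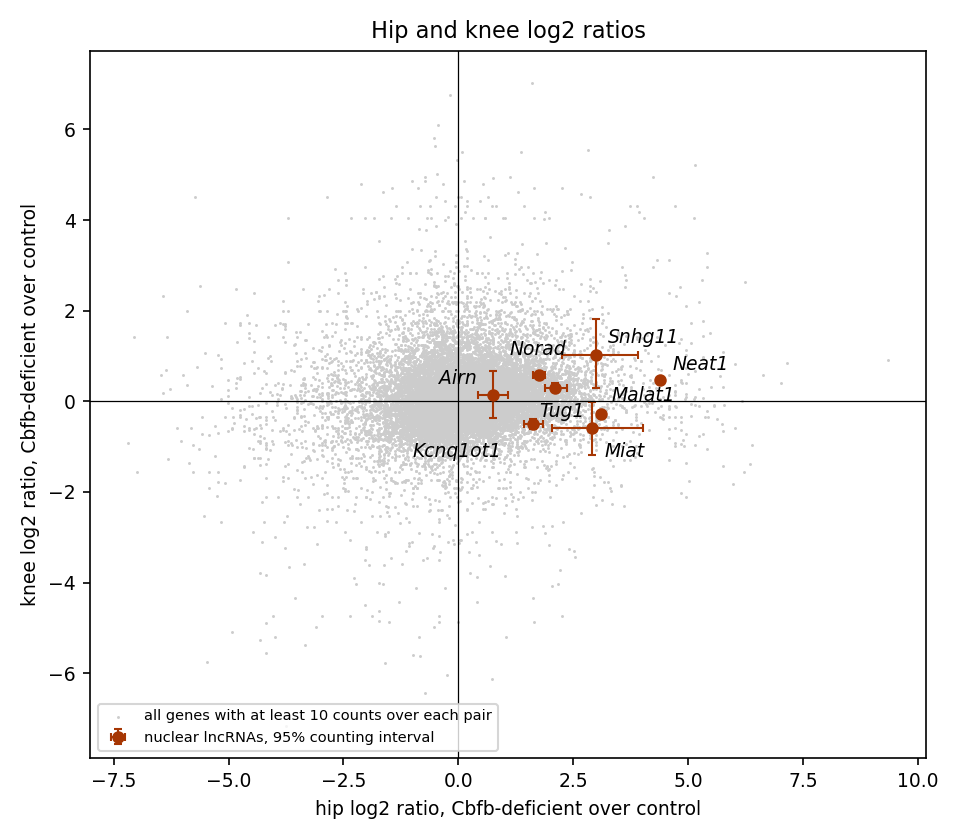
Knee log2 ratio against hip log2 ratio of the library labelled Cbfb-deficient over its control, with all 17594 genes tested in both joints in grey and the 8 nuclear lncRNAs in red with 95% counting intervals. The 8 lie between 0.75 and 4.38 on the hip axis and between -0.59 and 1.01 on the knee axis.

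Summed over the group, the members held 0.0176% of counts (0.0172 to 0.0180%) in the hip control and 0.214% (0.213 to 0.216%) in its counterpart. The knee libraries held 0.172% and 0.186%, so the hip control stood far below the other 3 libraries. Malat1 and Neat1 made up 81.1% of the members' counts in the hip control and 86.2% to 94.9% in the others. Without these 2 genes the remaining 6 held 0.00332% and 0.0108% of counts in the hip pair, and 0.0182% and 0.0256% of those in the knee pair, and the hip control was again the lowest. All lncRNA genes together held 0.336% and 0.641% of counts in the hip pair, and 0.651% and 0.666% of those in the knee pair. Malat1 and Neat1 were 4.25% of lncRNA counts in the hip control and 31.7% in its counterpart, and 23.6% and 24.1% in the knee.

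Per kilobase of exon, Malat1 had the highest level of the group in each library, from 9.07 CPM per kilobase in the hip control to 161 in the knee control. In the hip control it was followed by Norad (3.48) and Neat1 (3.18), whose counting intervals overlapped. In the hip library labelled Cbfb-deficient, Neat1 (64.4) stood next to Malat1 (75.4) and far above Norad (11.3). In the knee, Norad (18.9 and 31.8) stood above Neat1 (11.6 and 18.2) in both libraries. Tug1 ranked 4 in all 4 libraries, at 0.494 to 6.07 CPM per kilobase. The last 4, Kcnq1ot1, Airn, Miat and Snhg11, all lay between 0.0271 and 0.543. The counts of Kcnq1ot1 are spread over 93.9 kilobases of annotated exon, which lowers its level on this scale.

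Genes with long and AT-rich transcripts had higher ratios in the hip as a whole. In 20 bins of transcript length the median hip log2 ratio of all genes was -0.19 in the shortest bin, fell to -0.44 near 1612 bases and was 0.72 in the longest, and in 20 bins of GC content it went from 1.02 in the bin of lowest GC to -0.59 in that of highest GC. In the knee the medians of the shortest and longest bins were -0.34 and 0.22, and all 20 lay between -0.40 and 0.24, and the medians of the lowest and highest GC bins were -0.05 and 0.05. Most members are long. Among 2201 genes within 1.2-fold of the length of Malat1 (7886 bases) the hip median was 0.55, and it was 0.16 among 4613 genes near the length of Norad. Near the length of Neat1 (22397 bases) there were 19 genes, with a hip median of 1.03, and near that of Kcnq1ot1 only 2 genes.

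After subtraction of these trends, first of length and then of GC, the hip log2 ratio was 3.77 for Neat1, 2.73 for Miat, 2.39 for Snhg11, 2.05 for Malat1 and 1.21 for Norad. Tug1 (0.81), Kcnq1ot1 (0.26) and Airn (0.85) were then under 1, while all 8 intervals still lay above 0. Kcnq1ot1 and Neat1 fall in the last length bin with much shorter genes, so their lengths are corrected only in part. Airn was placed by its longest annotated transcript of 1733 bases, in a bin with a hip median of -0.44. Its annotated exons together cover 10545 bases, so its value depends on which length is taken. In the knee the removal turned no member's direction. Malat1 was at -0.47, Kcnq1ot1 at -0.62, Miat at -0.89 and Neat1 at 0.24 on this scale.

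**Figure D3:**
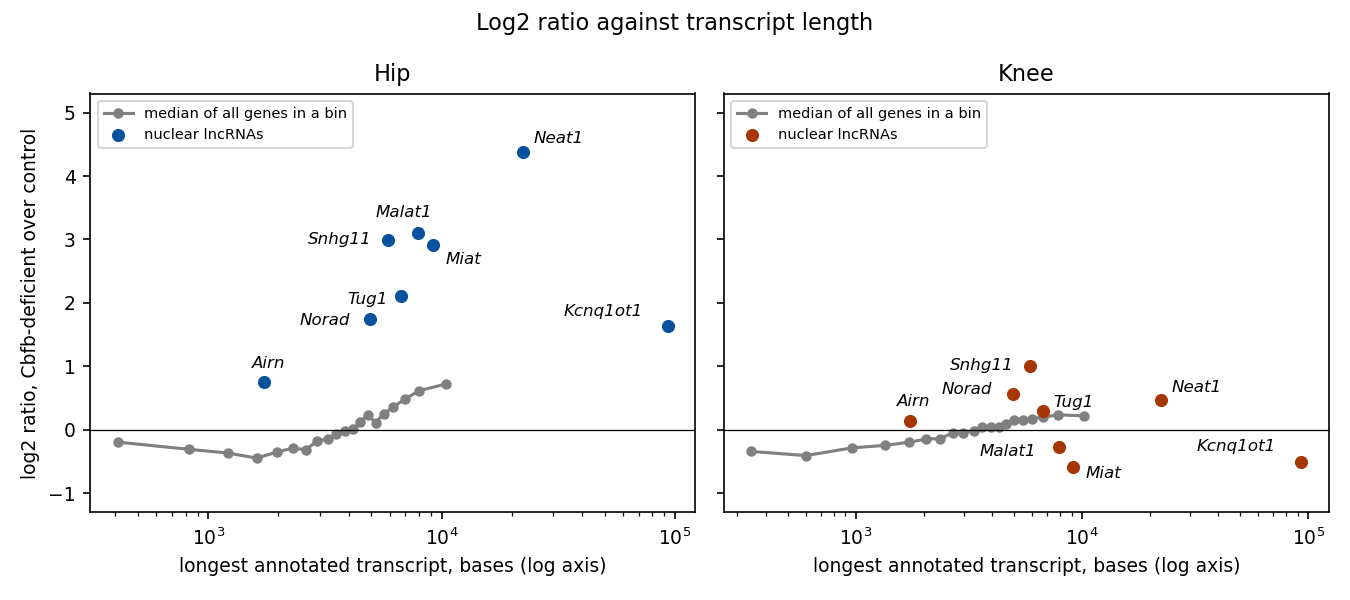
Log2 ratio of the library labelled Cbfb-deficient over its control against the length of the longest annotated transcript (log axis), for the hip and the knee. Grey points are medians of all genes in 20 bins of length, which in the hip are -0.19 in the shortest bin, -0.44 at the lowest and 0.72 in the longest. Coloured points are the 8 nuclear lncRNAs, each above the grey line in the hip within the line's range, a position that their choice by hip rise favours.

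The median of lncRNA genes differed with the counts behind them. Among lncRNA genes with at least 100 counts over the pair, the hip median was 0.83 (318 genes), against 0.14 for 11863 protein-coding genes at the same minimum. In the knee the medians were -0.19 (490 genes) and 0.05 (13091 genes). With the trends subtracted, the hip medians of these lncRNA and protein-coding genes were 0.79 and 0.07, and the knee medians were -0.03 and -0.02, so the 2 classes lay close together in the knee. Over all 1698 lncRNA genes tested in the hip the median was 0.08, and 408 of them with a single exon had a median of 0.46, against -0.04 for those with 2 or more exons. In the knee the order was the other way, with -0.17 for 527 genes of a single exon and -0.05 for the rest.

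Most nuclear lncRNAs listed beside the group were also higher in the hip library labelled Cbfb-deficient. Of 26 tested, 16 were above and 2 below their counting interval, with a median of 1.25. Of all genes tested in the hip, 37.3% were above and 33.7% below. In the knee 9 of 25 genes of the list were above and 11 below, with a median of -0.17. The knee median was 0.01 with scaling by library size. Meg3, the maternally expressed RNA of the Dlk1 domain, had 264 and 3314 counts in the hip, a log2 ratio of 3.85, and 333 and 796 in the knee, a ratio of 0.92. Rian, transcribed from the same domain, had hip and knee log2 ratios of 3.41 and 0.88. Firre, an X-linked RNA that binds chromatin, had 3.57 and 1.48, and Ftx, a gene of the X-inactivation centre, 2.95 and 0.37. H19, an abundant imprinted RNA, had 28416 and 25908 counts in the hip, a log2 ratio of 0.06, and 978 and 3875 in the knee, a ratio of 1.65. Xist, which coats the inactive X chromosome of females, had 5 counts and 1 count in the hip, and 469 and 130 counts in the knee, although the study describes the mice as male. With the length and GC trends subtracted, the hip value of H19 was 0.69, that of Rian 1.96 and that of Ftx 1.85.

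Small nucleolar RNA host genes, to which Snhg11 belongs, were above their interval in 13 of 14 cases in the hip (median 1.48). In the knee 13 of 17 were below it (median -0.59) and none was above. Of all genes tested, 37.3% were above in the hip and 29.7% below in the knee. Snhg11, which is not counted in this list, lay above its interval in both joints. Gas5, the growth-arrest host gene, drew 526 and 1781 counts from the hip libraries and 7179 and 6021 from those of the knee, with log2 ratios of 1.96 and -0.59. Snhg17 had log2 ratios of 2.40 and -0.08, and Zfas1 0.45 and -0.86. The knee median of the list stayed below 0 under each scaling, from -0.71 to -0.41.

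The protein partners were measured as mRNA. Of 36 paraspeckle protein genes, 33 were above and 3 below their interval in the hip, with a median of 1.04. In the knee 7 of 35 were above and 21 below, with a median of -0.14, which became 0.04 with scaling by library size. Srsf10, a splicing regulator, had log2 ratios of 2.65 and -0.43, Hnrnph1, an RNA-binding protein gene, 2.26 and -0.23, and the cold-induced Rbm3 1.96 and -0.36. Of 37 nuclear speckle protein genes, 36 were above and 1 below in the hip (median 1.49), and 14 and 19 in the knee (median -0.08, or 0.10 with library size). The splicing kinase gene Clk1 had 399 and 3951 counts in the hip, a log2 ratio of 3.50, and 0.39 in the knee. Luc7l2, of the U1 snRNP, had 3.36 and 0.10, and Pnn, a speckle protein gene, 3.16 and -0.14.

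mRNAs known to keep introns or to be held in the nucleus had the highest hip median of the lists outside the group, 1.87. In the hip 29 of 30 were above their interval and 1 below, against 37.3% and 33.7% of all genes tested. The knee median of this list was 0.03, with 13 above and 14 below, and it was -0.08 with upper quartile scaling. Rsrp1, an arginine and serine rich protein gene, had 1434 and 19465 counts in the hip, a log2 ratio of 3.96, and 0.69 in the knee. Fnbp4 had 3.54 and 0.47, and Pnisr 3.09 and 0.02. This list shares 12 genes with others, Clk1 and Pnisr among them. With the trend removed the hip medians were 1.30 for this list, 1.02 for speckle proteins, 0.57 for paraspeckle proteins, 0.85 for the other nuclear lncRNAs and 1.35 for the host genes, and the knee median of the first list was -0.09. Of the genes named for these lists, the hip values were then 2.40 for Clk1, 2.52 for Luc7l2, 2.03 for Pnisr, 1.91 for Srsf10, 1.25 for Hnrnph1 and 1.12 for Rbm3.

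**Figure D4:**
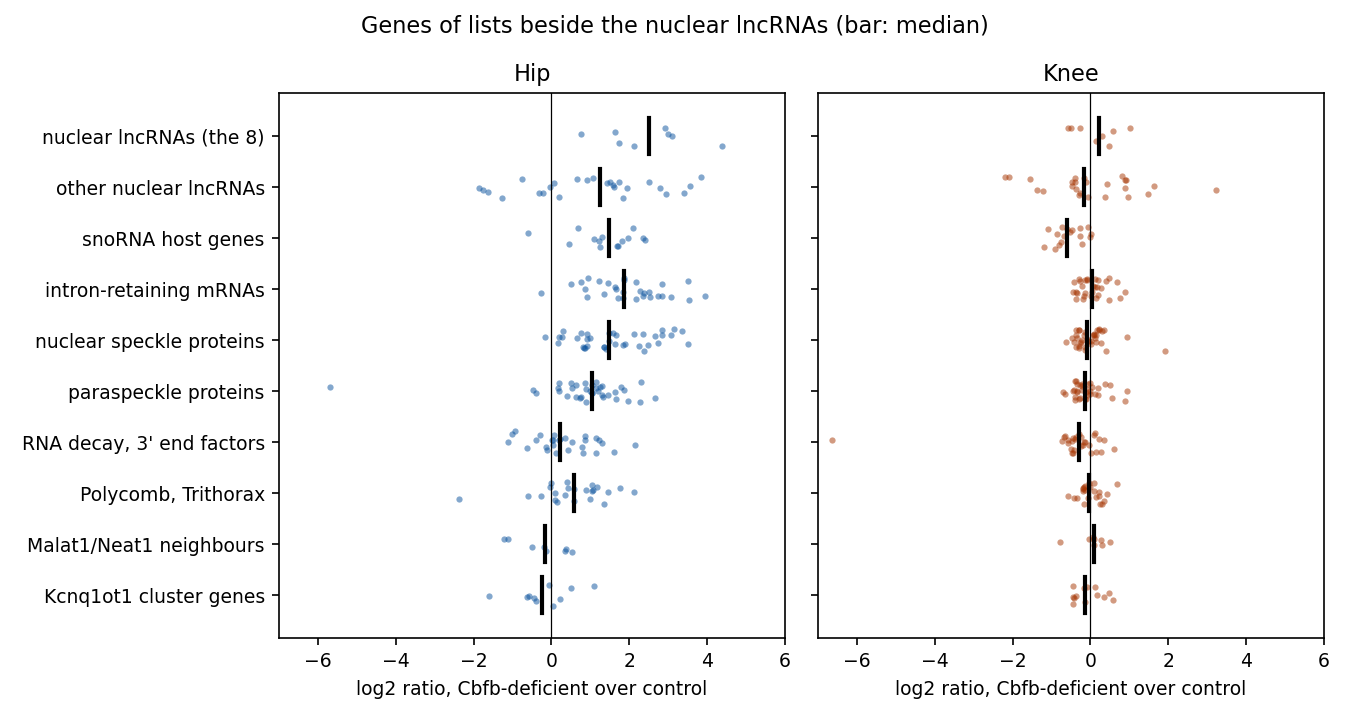
Log2 ratios of single genes (points) and list medians (bars) in the hip and the knee for the 8 nuclear lncRNAs and 9 lists of related genes. Medians reach 1.87 in the hip for intron-retaining mRNAs and lie between -0.59 and 0.09 in the knee for the 9 lists.

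Of 28 genes for nuclear RNA decay and RNA 3′ end formation tested in the hip, 14 were above and 6 below, with a median of 0.21 that became -0.14 with upper quartile scaling and -0.10 with the trends subtracted, and of 29 in the knee 5 were above and 20 below, with a median of -0.29. Zfc3h1, which tethers polyadenylated RNA to the exosome in the nucleus, had hip and knee log2 ratios of 2.16 and 0.02, and the nuclear poly(A)-binding protein gene Pabpn1 had 1.59 and -0.25. Pop7, a subunit of RNase P and RNase MRP, had -1.12 and -0.68. Rpp25, another subunit of both enzymes, was the one gene of the list called in the knee, at a log2 ratio of -6.66 (-12.5 to -4.73) with 1 count left in the library labelled Cbfb-deficient, and had 6 and 0 counts in the hip. Polycomb and Trithorax cofactors had a hip median of 0.57, with 17 of 23 above and 2 below, and a knee median of -0.04, which became 0.14 with library size. Cbx8, a chromodomain subunit of Polycomb complex PRC1, had the largest hip ratio of the list in size and was its one gene called lower there, with 379 and 63 counts and a log2 ratio of -2.38, against -0.02 in the knee. Suz12, a core subunit of Polycomb complex PRC2, had 2.13 and -0.18, and Ezh2, its methyltransferase, 0.99 and -0.57. With the trends subtracted, the hip values were 1.42 for Zfc3h1, 2.17 for Pabpn1, -0.58 for Pop7, -1.97 for Cbx8 and 1.21 for Suz12.

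The genes nearest to 3 members over the hip and knee ratios were found among 7594 genes that reached 1000 counts in some library, by the Euclidean distance over both log2 ratios. Nearest to Malat1 were Atrx (3.09 in the hip, -0.15 in the knee), Depp1 (3.06, -0.41), Zfp292 (3.16, -0.41), Asprv1 (3.22, -0.20) and Pnn. Nearest to Neat1 were Tet2 (4.18, 0.20), Ddit4 (4.04, 0.58), Rsrp1, Cep85l (3.76, 0.31) and Meg3. Nearest to Kcnq1ot1 were Zc3h15 (1.62, -0.53), Mphosph10, Mphosph8, Anp32e and Nucks1. The likeness is over 2 ratios from 4 libraries only.

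Markers of other tissues moved in the same libraries. In the hip, skeletal muscle genes had 8 of 16 above and 7 below their interval, all 9 tested erythroid genes were below with a summed share of 0.589% and 0.222%, and 13 mitochondrially encoded mRNAs held 6.08% and 7.39% of counts. In the knee all 16 muscle genes were above, the erythroid share was 9.99% and 4.94%, and the mitochondrial share was 1.45% and 4.66%. None of these genes was at 0 in any library. Osteoblast markers held 0.0941% and 0.0272% in the hip pair, and 1.42% and 0.794% in the knee pair. Endothelial, leukocyte and adipocyte markers had hip medians of -0.04, -1.24 and 0.51 and knee medians of 0.24, -0.26 and 0.81, over 10 genes each. The 8 muscle genes that the rule names ranged widely in the hip, with log2 ratios of 3.003 for Ttn, 2.71 for Neb, 1.27 for Myh4, 0.96 for Myh1, 0.87 for Myh2, 0.62 for Ryr1, 0.19 for Atp2a1 and -1.92 for Pvalb. Ratios were also scaled by plain totals, without TMM, that left out muscle, erythroid and mitochondrially encoded genes. Malat1 then had a hip log2 ratio of 3.10 and a knee log2 ratio of -0.10. For Neat1 these were 4.38 and 0.64. Plain totals of all genes gave 3.06 and -0.09 for Malat1, and 4.34 and 0.65 for Neat1. Most of the knee change from the TMM values was thus already present with all genes in the totals. Whether the members' own counts came from cartilage or from muscle, marrow or bone was not tested.

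**Figure D5:**
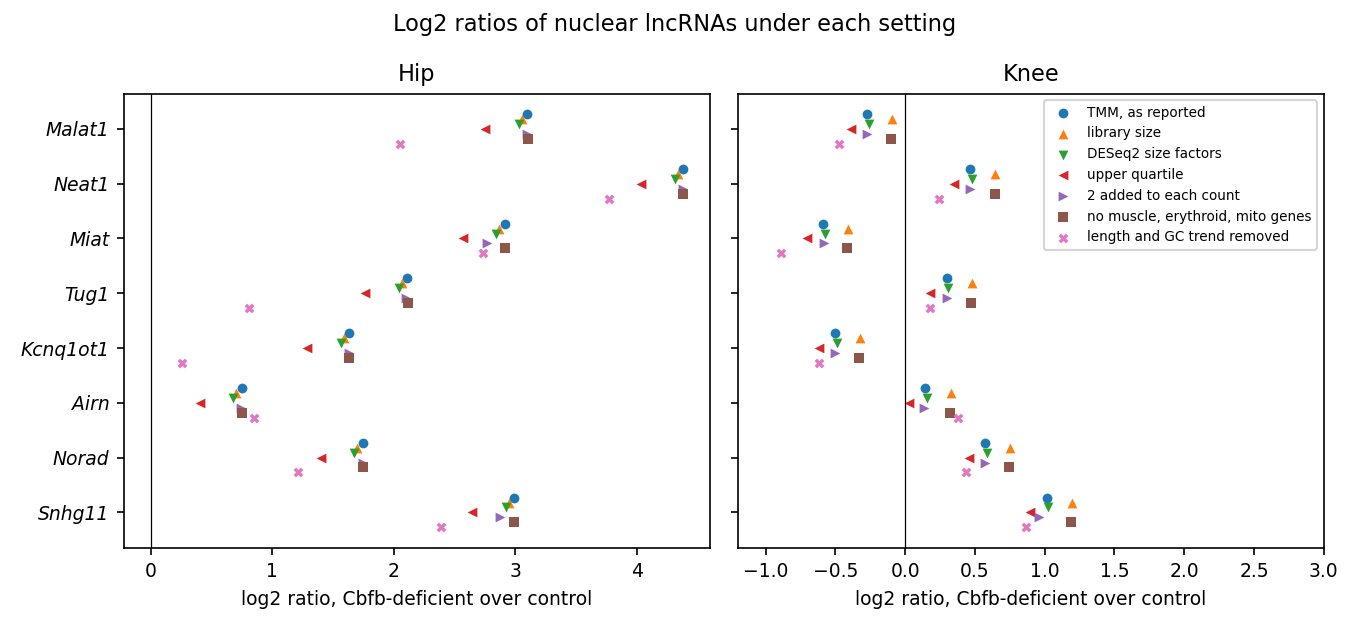
Log2 ratios of the 8 nuclear lncRNAs in the hip and the knee under the reported normalization (TMM) and 6 alternatives. In each joint no gene crosses 0 under any of them, and the shift is large when the length and GC medians are subtracted, as for Kcnq1ot1 from 1.63 to 0.26 in the hip.

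Promoters were read for the motif TGNGGT, bound by Runx factors, on both strands (ACCNCA on the other), since Cbfb acts through them. Promoter sequences, 250 bases before to 50 after the start, were found for 6 of the 8 genes in RefSeq (GRCm38.p6), and not for Neat1 and Norad. Single matches stood in the promoters of Airn, Miat, Snhg11 and Tug1, and none in those of Kcnq1ot1 and Malat1. Of all 32851 promoters in that table, 45.8% hold at least 1 match, so 4 of 6 is a description only. The promoters of Tug1 (chr11:3648765-3649064, minus strand) and Snhg11 (chr2:158375463-158375762, plus strand) are shown because their match has the same 6 letters, in capitals, at bases 186 and 205.
Tug1: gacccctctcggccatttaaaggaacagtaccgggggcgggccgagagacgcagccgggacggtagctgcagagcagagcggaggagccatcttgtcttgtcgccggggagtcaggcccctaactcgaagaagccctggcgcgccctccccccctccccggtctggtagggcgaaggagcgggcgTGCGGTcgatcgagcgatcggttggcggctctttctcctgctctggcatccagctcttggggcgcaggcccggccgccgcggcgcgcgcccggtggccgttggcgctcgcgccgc
Snhg11: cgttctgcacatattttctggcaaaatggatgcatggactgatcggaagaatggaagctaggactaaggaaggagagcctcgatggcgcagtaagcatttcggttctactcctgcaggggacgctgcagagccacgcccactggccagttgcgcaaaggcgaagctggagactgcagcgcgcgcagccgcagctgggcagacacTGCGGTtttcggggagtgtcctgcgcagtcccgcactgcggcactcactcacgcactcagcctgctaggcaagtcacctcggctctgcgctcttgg
The 4 genes with a match had hip and knee log2 ratios of 2.11 and 0.30 (Tug1), 2.99 and 1.01 (Snhg11), 2.91 and -0.59 (Miat) and 0.75 and 0.15 (Airn, whose knee interval held 0). The 2 without a match had 3.10 and -0.27 (Malat1) and 1.63 and -0.50 (Kcnq1ot1). The hip values were fixed above 0 by the choice of members, and with 6 genes nothing is read from the knee values about the motif. The partners of Cbfb had hip log2 ratios of 0.38 (Runx1), -0.35 (Runx2) and -1.68 (Runx3), and knee log2 ratios of 0.07, 0.50 and -0.24. The knee interval of Runx1 held 0, and with the length and GC trends subtracted its values were -0.20 and -0.11.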

How the data were processed

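The 4 poly-A libraries were compared within each joint, grouped as labelled. The authors deposited raw counts, whole numbers for each Ensembl gene. The study states alignment with STAR to GRCm39, while the submitters' processing notes list mm10, STAR 2.0 and FastQC 0.11.3. The hip counts carry HTSeq's summary lines (25.8% and 24.6% of reads listed), which were left out. The counting program of the knee is not given in the sources used here. Whether counting used strand is not stated.

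Identifiers were matched to GENCODE M39 (GRCm39), which covered 91.8% of hip and 92.6% of knee identifiers. Counts were normalized within each pair by TMM (edgeR 4.0.16, R 4.3.3). A log2 ratio used 0.5 added to each count, with a 95% Clopper-Pearson interval. A called gene had 10 or more counts in the sum of both libraries, a log2 ratio of 1 or more up or down, and an interval without 0. The methods of the study use DESeq2 with pairing. A fit over both joints with the joint as a block would leave 1 residual degree of freedom and was not run, because the joints also differ in Cre line, age and control. DESeq2 1.42.0 gave size factors as an alternative. Other alternatives were library size, upper quartile, 2 added to each count, totals without muscle, erythroid and mitochondrial genes, removal of the trend over longest transcript length and GC content (20 bins, 2 rounds), and other count minimums. Python 3.11.15, numpy 2.4.6, pandas 2.3.3, scipy 1.17.1 and matplotlib 3.10.9 were used. The steps were tested on counts simulated with counting error alone, which says nothing about variation between mice or libraries.

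The members and the 21 lists beside them were chosen with earlier results of these data known. Named genes are the 8 members, up to 4 genes per list and joint with the largest ratio among those with at least 100 counts, the 5 nearest genes of Malat1, Neat1 and Kcnq1ot1, and Cbfb and the Runx genes. Genes that overlap a member or lie next to it (Kcnq1, Igf2r, Frmd8) were named for their position.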

Additional observations from a re-analysis of the deposited data

Results flagged for a closer look

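For 3 genes the direction differed between the joints, with the hip library labelled Cbfb-deficient above its control and the knee library labelled Cbfb-deficient below its control. The difference of the hip and knee log2 ratios was 3.37 for Malat1, 3.50 for Miat and 2.14 for Kcnq1ot1. With the length and GC trends subtracted it was 2.52, 3.62 and 0.87 in the same order. The hip value in each was used to choose the members. None of these differences was tested, since each condition has 1 library, and the knee interval of Miat ended at -0.01. In the hip, reads that fell on no gene made up 5.05% of the reads listed in the control and 5.78% in its counterpart, a value outside the counts on genes that was above that of the control. Reads counted as ambiguous between genes, such as those on overlapping genes, were 7.40% and 5.96%.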

How the results depend on the processing

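A paired fit over the 4 libraries with the joint as a block was not run, and the labels give no replicate numbers. Scaling shifted all log2 ratios of a pair together, by -0.35 in the hip with upper quartile, and in the knee by 0.18 with library size, 0.18 without muscle, erythroid and mitochondrial genes and -0.12 with upper quartile. No log2 ratio of a member changed direction under the 6 alternatives, and 7 members were called higher in the hip except where the trend was removed, with 5. The median hip log2 ratio of the members was 2.17 with upper quartile and 1.63 after subtracting the length and GC trends. In the knee 0 members were called higher with upper quartile, with 2 added to each count, and with the trend removed. With at least 10 counts in each library, 1435 genes were called lower in the hip and 1202 higher and 811 lower in the knee. The cause of these changes was not tested, apart from the smaller number of genes that the last minimum leaves. Depth limits Miat, Snhg11 and Airn most, with 11 to 198 counts per library.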
